A study of Mus musculus with 12 samples.

Results

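The genes described here serve protein folding, translocation and degradation in the endoplasmic reticulum (ER). They were taken from a list of 42 symbols grouped by role: 11 chaperones, 8 enzymes of disulfide formation, 9 parts of the translocon, 10 genes of ER-associated degradation, and 4 stress sensors and transcription factors. On the arrays 41 of the 42 were measured, among 18193 genes in all. Sec61g was carried only by a probe set with several symbols and was not analysed here. Ero1l and Ero1lb of the list are named Ero1a and Ero1b.

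Expression was measured in CD4+ CD25- T cells of C57B/6J mice, whose age and number the sources used here do not give. In all 4 groups the cells were stimulated on plates coated with antibodies to CD3 and CD28 and kept with TGFb and IL-6, which favours the Th17 fate of helper T cells. They received 10 nM halofuginone (HF), a small molecule related to a plant alkaloid and known as an inhibitor of prolyl-tRNA synthetase, or 10 nM of MAZ1310, its inactive derivative. Each compound was given for 3 h or 6 h, with 3 arrays a group (replicates 1 to 3), called biological replicates by the submitters, and there was no group without compound. No word is given on whether replicates came from separate animals or cultures, so a p-value here speaks of the spread among these arrays, which may in part be technical.

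A protein made for secretion or for a membrane enters the ER through the Sec61 channel, folds there with the help of chaperones and disulfide isomerases, and, if it fails, is drawn back to the cytosol for destruction. Unfolded protein is sensed by IRE1 (Ern1), ATF6 and PERK (Eif2ak3): IRE1 splices Xbp1 mRNA into the form that encodes an active factor, ATF6 is cut to release one, and PERK phosphorylates eIF2a and so raises ATF4. XBP1 and ATF6 switch on the genes described here, largely through the ER stress response elements ERSE and ERSE-II. ATF4 can also be raised without ER stress, through the amino acid sensor GCN2, and it acts on CARE sequences. Activated T cells enlarge their ER as they prepare to secrete cytokines.

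RefSeq promoters (GRCm38.p6, 250 bases before to 50 bases after a start site) were found for 35 of the 41 genes, with 36 promoters. They are shown so that the changes of genes that share these elements can be read beside the sequences. ERSE, searched on both strands as CCAAT, any 9 bases and CCACG, lay in 10 of the 36 promoters (27.8%) and in 0.119% of all 32851 promoters. ERSE-II, searched as ATTGG, any 1 base and CCACG, lay in 2 of the 36 (5.56%) and in 0.0365% of all. The genes had been listed as targets of XBP1 and ATF6, so these shares are a description of the list. The matches read, on the strand that carries the element and with its fixed bases in capitals:
Hspa5 (chr2:34772025-34772043, plus strand): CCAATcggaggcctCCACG
Hsp90b1, nearer the start (chr10:86705533-86705551, plus strand): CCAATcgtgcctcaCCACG
Hsp90b1, farther (chr10:86705638-86705656, minus strand): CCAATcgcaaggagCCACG
Creld2 (chr15:88819520-88819538, minus strand): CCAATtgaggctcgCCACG
Calr (chr8:84847075-84847093, plus strand): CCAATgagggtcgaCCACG
Canx (chr11:50325800-50325818, minus strand): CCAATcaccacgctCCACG
Dnajc3 (chr14:118937827-118937845, plus strand): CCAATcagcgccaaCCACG
Pdia6 (chr12:17266491-17266509, plus strand): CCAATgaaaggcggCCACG
Ero1b (chr13:12565682-12565700, minus strand): CCAATgaggcgggaCCACG
Syvn1 (chr19:6046532-6046550, plus strand): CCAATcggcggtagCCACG
Derl3 (chr10:75893242-75893260, minus strand): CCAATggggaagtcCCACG
Herpud1, ERSE-II (chr8:94386377-94386387, plus strand): ATTGGgCCACG
Dnajb11, ERSE-II (chr16:22857852-22857862, plus strand): ATTGGcCCACG
Of the 12 genes with either element, 6 were lower with HF at 6 h (Hsp90b1, Creld2, Calr, Dnajc3, Pdia6 and Dnajb11), 2 were higher (Ero1b and Herpud1) and 4 were not called (Hspa5, Canx, Syvn1 and Derl3). Among the 35 genes with a promoter, 15 were lower, 5 were higher and 15 were not called. The 12 were not tested against the 35. The rise of Ero1b held in 6 of 17 alternative fits, and Canx was called lower at 3 h.

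The 250 bases before the start are printed for 3 of them, one higher, one lower and one not called with HF. Capitals mark every match to ERSE, ERSE-II, the UPRE core TGACGTG or CARE, searched as TGATGNAA, on either strand:
Herpud1 (chr8:94386179-94386428, plus strand): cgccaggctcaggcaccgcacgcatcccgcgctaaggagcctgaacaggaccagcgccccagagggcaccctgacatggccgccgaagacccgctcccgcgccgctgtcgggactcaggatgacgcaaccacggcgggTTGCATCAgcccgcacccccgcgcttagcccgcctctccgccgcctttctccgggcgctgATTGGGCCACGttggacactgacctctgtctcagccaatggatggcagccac
Creld2 (chr15:88819396-88819645, plus strand): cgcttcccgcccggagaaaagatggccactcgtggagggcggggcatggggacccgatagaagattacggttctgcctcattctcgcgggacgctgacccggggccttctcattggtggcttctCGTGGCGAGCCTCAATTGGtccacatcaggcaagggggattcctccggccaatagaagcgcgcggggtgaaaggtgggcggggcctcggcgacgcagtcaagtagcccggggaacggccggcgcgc
Hspa5 (chr2:34771840-34772089, plus strand): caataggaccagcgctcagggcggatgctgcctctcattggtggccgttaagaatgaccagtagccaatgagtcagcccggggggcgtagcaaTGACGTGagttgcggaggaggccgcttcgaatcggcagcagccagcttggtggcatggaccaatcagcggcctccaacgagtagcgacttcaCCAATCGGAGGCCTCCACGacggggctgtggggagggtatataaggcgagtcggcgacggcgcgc
In Herpud1 the capitals are CARE, read on the minus strand, and then ERSE-II, which ended 42 bases before the start. In Creld2 they are ERSE on the minus strand, and in Hspa5 the UPRE core and then ERSE. CARE lay in 3.97% of all promoters and, among the 36, in that of Herpud1 (2.78%), and the UPRE core lay in 2.01% of all and in that of Hspa5. A match is a run of letters and was not tested as a binding site.

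Values are the deposited intensities, on a linear scale and with no unit, after quantile normalization between arrays, which hides a shift common to all genes. Changes are log2 fold changes ± SE of HF over MAZ1310, 3 arrays a group, from limma fitted to all 18193 genes on all 12 arrays. A gene is called, and is said to have risen or fallen, where its p, adjusted over all genes by Benjamini-Hochberg, was under 0.05. Array medians lay between 97.3 and 102 intensity units, arrays of 1 group correlated with each other at 0.992 to 0.997, and 40 of the 41 members lay above the median level of all genes.

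With HF, 2 members were higher and 9 lower at 3 h, where 9.49% of all genes were called, 2.83% higher and 6.66% lower. For 6 h the counts were 7 higher and 17 lower, where 17.0% of all genes were called, 5.22% higher and 11.7% lower. Over all 41 members the median change was -0.15 at 3 h and -0.20 at 6 h, beside 0.03 and 0.02 over all genes. The members are brighter than most genes, and among the 9096 genes above the median level 1088 were lower and 434 higher at 3 h, and 1777 (19.5%) lower and 798 (8.77%) higher at 6 h. Of all called genes 70.2% were lower at 3 h and 69.2% at 6 h, and with cyclic loess in place of the deposited normalization these shares were 60.0% and 65.2%. With the replicate number as a block, 2 members were up and 12 down at 3 h, and 7 were up and 20 down at 6 h. The share of all genes called with the block alone is not given here, so these counts cannot be set against it.

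**Figure D1:**
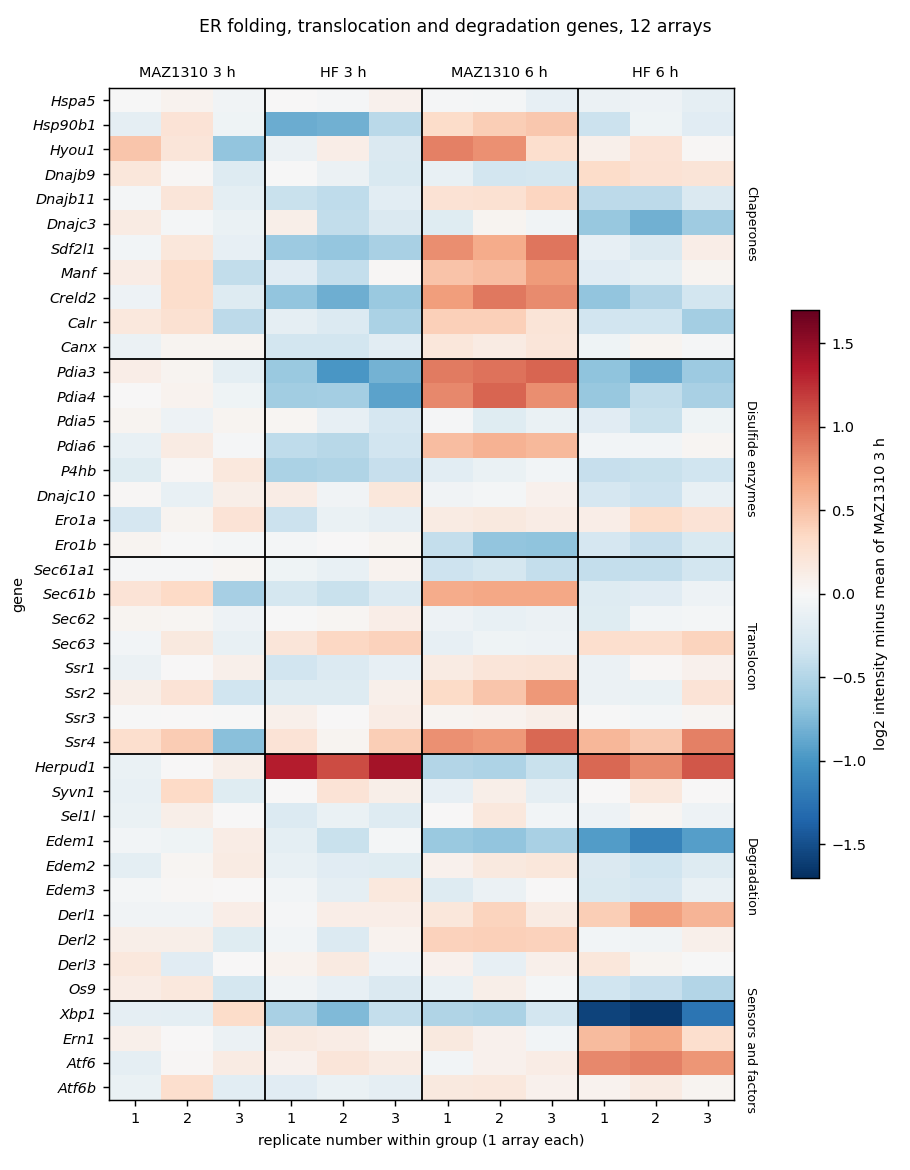
Level of each of the 41 genes (rows, by role) on each of the 12 arrays (columns, by group and replicate), as log2 intensity minus the mean of the 3 arrays with MAZ1310 at 3 h. Pdia3, Pdia4 and Creld2 are high with MAZ1310 at 6 h and lower with HF, Xbp1 is lowest with HF at 6 h, and Herpud1 is high on all 6 HF arrays.

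The 7 genes lower at both times were Hsp90b1, Sdf2l1, Creld2, Pdia3, Pdia4, Pdia6 and Xbp1, and the 2 higher at both were Herpud1 and Sec63. Over all genes 4.33% were lower and 1.71% higher at both. Canx and P4hb were called lower only at 3 h, 10 genes were called lower only at 6 h and 5 higher only at 6 h, and no gene was called in opposite directions. For 6 of the 7 the fall was larger at 6 h, Hsp90b1 being the exception. The comparisons at 3 h and 6 h share no array, but they share the estimate of spread of each gene from all 12 arrays. Deviations of equally numbered HF arrays also correlated across times (0.322 to 0.502), so the 2 comparisons are not independent. The arrays did not overlap between compounds for 13 members at 3 h, 11 with HF lower and 2 with HF higher, where 22.8% of all genes did not, 11.6% with HF lower and 11.2% with HF higher. At 6 h this held for 30 members, 23 lower and 7 higher, where 36.8% of all genes did not overlap, 20.4% lower and 16.4% higher. A fall of at least 2-fold was called for none at 3 h by limma (0.231% of all genes) and for 4 at 6 h (Pdia3, Pdia4, Creld2 and Xbp1, where 0.973% of all genes were), and a rise of that size for Herpud1 alone at each time (0.297% and 0.627% of all genes).

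Several values move with the compound or the arrays and stand beside every result here. The actin control probe sets, whose difference between 3' and 5' ends is a sign of RNA quality, had a log2 difference of 1.03 ± 0.22 (SD, n = 3) with MAZ1310 and 1.25 ± 0.28 with HF at 3 h, and of 0.86 ± 0.14 and 1.07 ± 0.26 at 6 h. It was higher with HF in each of the 3 equally numbered pairs of arrays at 3 h (by 0.17 to 0.30) and at 6 h (by 0.11 to 0.36), and replicate 2 had the highest value in each group. The Gapdh control probe sets had a mean 3' to 5' difference of 0.01 (-0.14 to 0.14) with MAZ1310 and 0.29 (0.14 to 0.55) with HF at 3 h, and of -0.09 (-0.19 to 0.02) and 0.10 (-0.05 to 0.36) at 6 h. With both the actin difference and the replicate block in the fit, 1 member was called at 3 h (Herpud1) and 9 at 6 h (Dnajb9, Herpud1 and Atf6 higher; Sdf2l1, Creld2, Calr, Pdia3, Pdia4 and Xbp1 lower). Of all genes this fit called 1.02% up and 1.29% down at 3 h, and 1.80% up and 3.20% down at 6 h. The 11 and 24 members called without these terms all kept their sign, and the median over all 41 members was -0.05 at 3 h and -0.17 at 6 h, in place of -0.15 and -0.20. Some members whose call was lost at 3 h were near their earlier size, such as Hsp90b1 (-0.67, adjusted p = 0.0855), Pdia4 (-0.60, adjusted p = 0.0579) and P4hb (-0.55, adjusted p = 0.0759). Others were smaller, such as Creld2 at 3 h (-0.35, adjusted p = 0.459) and Dnajc3 (-0.18, adjusted p = 0.672), Ssr2 (-0.18, adjusted p = 0.838), Manf (-0.35, adjusted p = 0.62) and Derl2 (-0.17, adjusted p = 0.736) at 6 h.

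Of T cell markers, 9 of 10 were measured. None was called at 3 h by limma (2 at an unadjusted p under 0.05), and 8 were lower with HF at 6 h (11.7% of all genes), with a median over the 9 of -0.58. The summed intensity of the 9 at 6 h was 19490 to 21620 with HF and 27640 to 29170 with MAZ1310. At 3 h the sums were 25060 to 30140 with HF and 24490 to 34060 with MAZ1310. Of 27 markers of B or plasma, myeloid, CD8 or NK, MHC class II and erythroid cells, 23 were measured and none was called at either time by limma (1 at an unadjusted p under 0.05 at each time). The summed intensity of the 6 B or plasma cell markers measured was 761 to 862 with MAZ1310 and 761 to 899 with HF at 3 h, and 676 to 806 and 757 to 862 at 6 h. That of the 4 MHC class II genes was 1457 to 2361 and 1201 to 1960 at 3 h, and 866 to 1627 and 823 to 1301 at 6 h. The 5 CD8 or NK genes measured summed to 670 to 795 and 652 to 745 at 3 h, and to 608 to 656 and 569.8 to 594 at 6 h, and the 6 myeloid genes to 599 to 688 and 657 to 672, and to 565 to 636 and 627 to 647. Of these 23 markers, 7 lay below the array medians on all 12 arrays (Cd79a, Cd79b, Itgam, Fcgr3, Klrd1, Hba-a1 and Alas2), and 10 lay above them on all 12, among them Sdc1 at 198 to 247, Csf1r at 232 to 280.1, Pax5 at 143 to 219.6, Cd8a at 198 to 265 and Cd74 at 278 to 851. No detection calls were used, so no marker is given as present or absent. In such bulk samples fewer cells of a type and less RNA per cell cannot be told apart. The part of RNA quality and of the T cell markers in the changes was not tested beyond the fit with the actin difference.

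**Figure D2:**
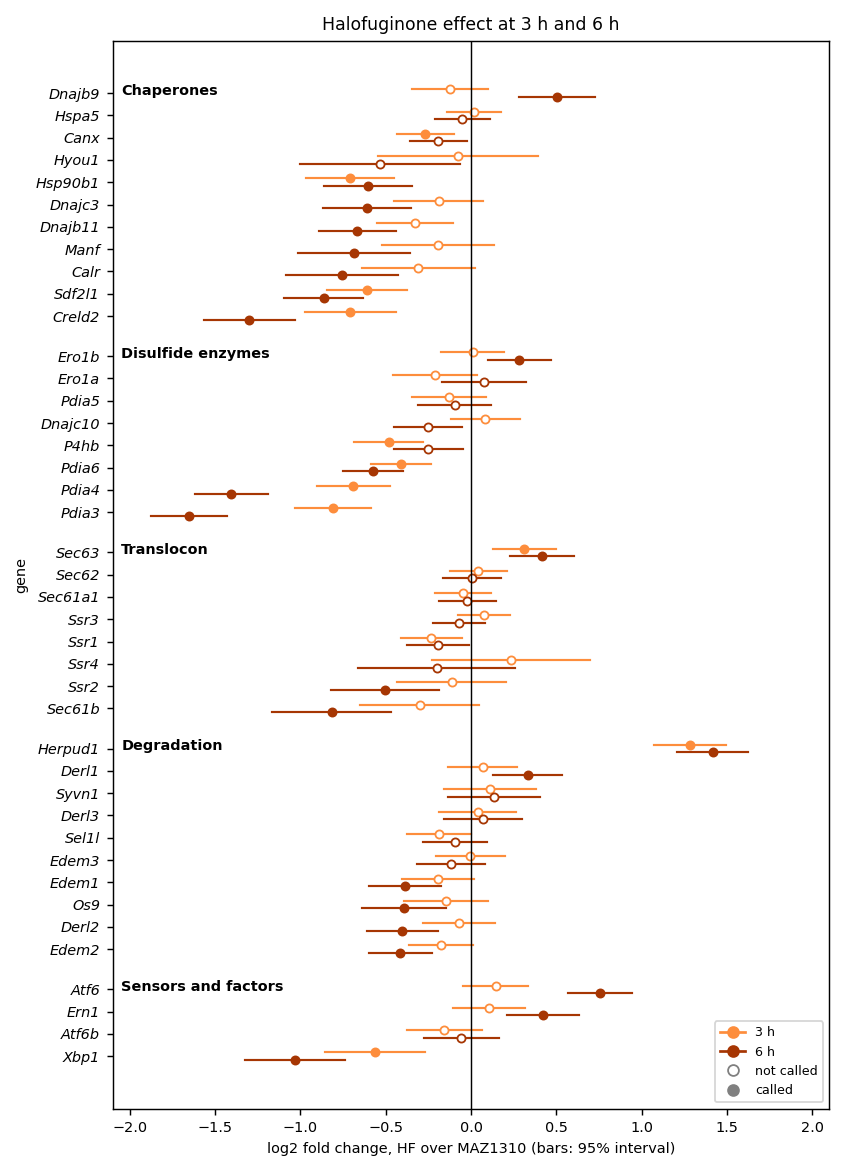
Change of each gene with HF at 3 h (light) and 6 h (dark) as log2 fold change over MAZ1310, with 95% intervals from limma, 3 arrays a group, by role. Filled points passed an adjusted p under 0.05. Chaperones and disulfide enzymes lie mostly left of 0, while Herpud1 lies at 1.28 and 1.41.

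Of the 11 chaperones, 4 fell with HF at 3 h (6.66% of all genes) and 7 fell at 6 h (11.7% of all genes), while 1 rose at 6 h (5.22%). Their median change was -0.27 at 3 h and -0.61 at 6 h. The genes that fell at 6 h were Hsp90b1, Dnajb11, Dnajc3, Sdf2l1, Manf, Creld2 and Calr, Dnajb9 rose, and Hspa5, Hyou1 and Canx were not called.

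Hspa5, which encodes BiP, the ER's main Hsp70 chaperone and the usual marker of the unfolded protein response, read 11102, 11637 and 10741 with MAZ1310 and 11209, 10981 and 11720 with HF at 3 h. At 6 h it read 11001, 10948 and 10123 with MAZ1310 and 10395, 10526 and 10019 with HF. The groups overlapped at both times. The change was 0.02 (95% interval -0.14 to 0.18, adjusted p = 0.916) at 3 h and -0.05 (-0.21 to 0.11, adjusted p = 0.734) at 6 h, so these intervals leave out a change of 1.5-fold in either direction.

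Hsp90b1, the ER's Hsp90 (GRP94), read 4217, 5491 and 4441 with MAZ1310 and 2613, 2660 and 3397 with HF at 3 h. The 6 h values were 5814, 6267 and 6416 with MAZ1310 and 3641, 4473 and 4086 with HF. At each time every HF array lay below every MAZ1310 array. It fell by 0.71 ± 0.12 at 3 h (adjusted p = 0.00149) and by 0.60 ± 0.12 at 6 h (adjusted p = 0.00215). Both Hspa5 and Hsp90b1 carry ERSE and serve as markers of ER stress, and only Hsp90b1 was called.

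Creld2, a disulfide isomerase-like protein of the ER that is induced by ER stress, read 690.1, 901 and 626 with MAZ1310 and 458, 411 and 474 with HF at 3 h. After 6 h it read 1199, 1356 and 1279.5 with MAZ1310 and 459, 518 and 586 with HF. The HF arrays lay below the MAZ1310 arrays at both times, and the HF arrays at 6 h also lay below the MAZ1310 arrays at 3 h. Creld2 had the largest fall of the chaperones, 0.71 ± 0.12 at 3 h (adjusted p = 0.00187) and 1.30 ± 0.12 at 6 h (adjusted p = 3.42e-06), or 2.46-fold.

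Sdf2l1, a partner of ER Hsp40 proteins, read 356, 419.5 and 336 with MAZ1310 and 239.95, 234 and 251 with HF at 3 h. At 6 h it read 639, 571 and 692 with MAZ1310 and 335, 312 and 399.9 with HF, with no overlap at either time. It fell by 0.61 ± 0.11 at 3 h (adjusted p = 0.00218) and by 0.86 ± 0.11 at 6 h (adjusted p = 4.51e-05).

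Calr encodes calreticulin, a lectin chaperone that holds calcium and glycoproteins. At 3 h it read 5781, 6146 and 3774 with MAZ1310 and 4589.8, 4351 and 3534 with HF, and replicate 3 was the lowest of each group. The 6 h values were 6762, 6797 and 5962 with MAZ1310 and 4079.7, 4064 and 3439 with HF, with no overlap. Its change was -0.31 at 3 h (adjusted p = 0.264, or 0.0478 with the replicate block) and it fell by 0.76 ± 0.15 at 6 h (adjusted p = 0.00256). Without replicate 3 of MAZ1310 at 3 h the change at 3 h was -0.53 (adjusted p = 0.0115).

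Manf, a secreted ER stress factor, fell by 0.68 ± 0.15 at 6 h (adjusted p = 0.00512). It read 2953, 3021 and 3487 with MAZ1310 and 1842, 1881 and 2166 with HF at that time, with no overlap. At 3 h the groups overlapped, at 2294, 2581 and 1570.3 with MAZ1310 and 1842, 1593 and 2122 with HF. The change there was -0.19 (adjusted p = 0.515).

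Dnajb11 (ERdj3) and Dnajc3 (p58IPK), Hsp40 partners of BiP, both fell at 6 h. Dnajb11 read 1853, 1869 and 2013 with MAZ1310 and 1147, 1151 and 1320.5 with HF at 6 h, and fell by 0.67 ± 0.10 (adjusted p = 0.000337). The 3 h values were 1522, 1806 and 1391 with MAZ1310 and 1201, 1159.5 and 1387 with HF. The 3 h groups were separated by only a few units, and the change of -0.33 had an adjusted p of 0.0646 (0.0495 with the replicate block). It was -0.41 and called without replicate 3 of MAZ1310 (adjusted p = 0.0261) or of HF (adjusted p = 0.0451) at 3 h. Dnajc3 fell by 0.61 ± 0.12 at 6 h (adjusted p = 0.00202), and each of its 5 probe sets was called lower at that time.

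Dnajb9 (ERdj4), a further Hsp40 protein and a well known XBP1 target, was the one chaperone that rose. It read 1359, 1196 and 1203 with MAZ1310 at 6 h, all below the 1832, 1761 and 1721 with HF. At 3 h the groups overlapped, at 1691, 1504 and 1275 with MAZ1310 and 1473, 1381 and 1237 with HF. The change was -0.12 at 3 h (adjusted p = 0.548) and 0.50 ± 0.10 at 6 h (adjusted p = 0.00287).

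Canx (calnexin, the membrane-bound lectin chaperone) fell by 0.27 ± 0.08 at 3 h (adjusted p = 0.0415) and had a change of -0.19 at 6 h (adjusted p = 0.118). The call of Canx was lost without replicate 2 or 3 of MAZ1310 or replicate 1 or 2 of HF at 3 h, with changes of -0.24 to -0.25 (adjusted p = 0.0886 to 0.127), and under cyclic loess (-0.20, adjusted p = 0.0814). A dimmer Canx probe set, at 316, was called lower at 6 h (-0.49, adjusted p = 0.00767). Hyou1, an Hsp110 protein that exchanges BiP's nucleotide, had a change of -0.53 ± 0.22 at 6 h (adjusted p = 0.126, or 0.0179 with the replicate block). Its arrays spread widely within groups, from 1165 to 2567 with MAZ1310 at 3 h.

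Of the 8 enzymes of disulfide formation, 4 fell with HF at 3 h (Pdia3, Pdia4, Pdia6 and P4hb), where 6.66% of all genes fell. At 6 h 3 fell (Pdia3, Pdia4 and Pdia6) and 1 rose (Ero1b), where 11.7% of all genes fell and 5.22% rose. The median change of the 8 was -0.31 at 3 h and -0.25 at 6 h. Pdia3 and Pdia4 fell more than any other member at 6 h.

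Pdia3 (ERp57) is the disulfide isomerase that works with calnexin and calreticulin on glycoproteins and loads MHC class I. It read 2425, 2305.5 and 1993 with MAZ1310 and 1439.5, 1126.5 and 1282 with HF at 3 h. After 6 h it read 4124, 4239 and 4438 with MAZ1310 and 1384, 1232 and 1459 with HF. The 6 HF arrays shared one range, from 1126.5 to 1459, and all lay below the MAZ1310 arrays, which were higher at 6 h than at 3 h. Pdia3 fell by 0.81 ± 0.10 at 3 h (adjusted p = 0.000183) and fell by 1.65 ± 0.10 at 6 h (adjusted p = 5.8e-08), or 3.15-fold.

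Pdia4 (ERp72), a related isomerase, read 380.0, 392 and 359 with MAZ1310 and 249.7, 253 and 201 with HF at 3 h. At 6 h it read 666, 748 and 653 with MAZ1310 and 242, 282 and 256 with HF. Again the HF arrays of both times overlapped each other, below all MAZ1310 arrays. The fall was 0.69 ± 0.10 at 3 h (adjusted p = 0.000465) and 1.41 ± 0.10 at 6 h (adjusted p = 1.96e-07), or 2.65-fold.

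For both genes these values come from the brightest probe set. The other probe set of Pdia3, at a mean intensity of 92.2, changed by 0.07 at 3 h and -0.16 at 6 h, and that of Pdia4, at 106, by 0.15 at both times, and none of these 4 values was called. Both lie near the array medians, so whether they measure the transcripts was not tested.

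Pdia6 (P5), an isomerase that also binds BiP, read 2244, 2686 and 2408 with MAZ1310 and 1816, 1758 and 1942 with HF at 3 h. The 6 h values were 3498, 3681 and 3572 with MAZ1310 and 2368.5, 2358 and 2487 with HF. There was no overlap, and it fell by 0.41 ± 0.08 at 3 h (adjusted p = 0.00499) and by 0.58 ± 0.08 at 6 h (adjusted p = 0.000148).

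P4hb (PDI itself) read 4597, 5375 and 6021 with MAZ1310 and 3654, 3701 and 4023 with HF at 3 h, and fell by 0.48 ± 0.09 (adjusted p = 0.0039). After 6 h it read 4659.6, 4879.5 and 5110.5 with MAZ1310 and 4025, 4089.8 and 4183 with HF. The arrays did not overlap at either time, but the change at 6 h was -0.25 (adjusted p = 0.0885, or 0.0373 with the replicate block and 0.036 under cyclic loess).

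Ero1b, an oxidase that recharges PDI, read 254, 211 and 209 with MAZ1310 and 278, 256 and 283 with HF at 6 h, and rose by 0.28 ± 0.09 (adjusted p = 0.0351). At 3 h it read 347, 334.5 and 331 with MAZ1310 and 331, 339.7 and 349 with HF, with overlap and a change of 0.01. This call of Ero1b was lost without replicate 2 or 3 of MAZ1310 or replicate 1 or 3 of HF at 6 h, with changes of 0.23 to 0.27 (adjusted p = 0.118 to 0.144). Its paralog Ero1a changed by -0.21 at 3 h and 0.07 at 6 h, Dnajc10 by 0.08 and -0.25, and Pdia5 by -0.13 and -0.10, none of them called. Dnajc10 (ERdj5, a reductase for degradation) had an adjusted p of 0.0258 at 6 h with the replicate block, and another of its probe sets was called lower at 6 h (-0.35, adjusted p = 0.021). Pdia5 was the one member below the median level of all genes, at 35.7 to 47.9.

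Of the 8 translocon genes measured, 1 rose at both times (Sec63, beside 1.71% of all genes) and 2 fell at 6 h (Sec61b and Ssr2, beside 11.7%). These counts are small and were not tested against the shares of all genes. The median change of the 8 was 0.00 at 3 h and -0.13 at 6 h. Sec61a1, the pore of the channel, and Sec62 were not called with HF at either time.

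Sec61a1 read 4372, 4353.5 and 4544.5 with MAZ1310 and 4193.5, 4069 and 4606 with HF at 3 h. At 6 h it read 3469, 3610.5 and 3342 with MAZ1310 and 3342.5, 3346 and 3572 with HF. The compounds overlapped at each time, with changes of -0.05 and -0.02, while all arrays of 6 h lay below all arrays of 3 h.

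Sec61b, the small beta subunit of the same channel, read 4242, 4318 and 4319 with MAZ1310 at 6 h and 2348, 2397 and 2569 with HF. It fell by 0.82 ± 0.16 (adjusted p = 0.00215). The 3 h values were 3192, 3442 and 1848 with MAZ1310 and 2217.5, 2107 and 2322 with HF. Replicate 3 of MAZ1310 was lowest there, so the groups overlapped and the change was -0.30 (adjusted p = 0.31). Without that array it was -0.58 (adjusted p = 0.000489), but without all arrays numbered 2 it was -0.10 (adjusted p = 0.882). Once replicate number and actin difference were both modelled, Sec61b changed by 0.06 at 3 h (adjusted p = 0.969). In that fit its change at 6 h was -0.48 (adjusted p = 0.405), so the 6 h call was lost. That call was also lost without all arrays numbered 1.

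Sec63, an Hsp40-like protein that brings BiP to the channel, read 1224, 1407 and 1158 with MAZ1310 and 1447, 1599.6 and 1648 with HF at 3 h. The 6 h values were 1138, 1192 and 1184 with MAZ1310 and 1531, 1529 and 1631 with HF. The HF arrays were higher with no overlap at both times, and Sec63 rose by 0.31 ± 0.09 (adjusted p = 0.0351) and 0.42 ± 0.09 (adjusted p = 0.0031). The call at 3 h was lost without replicate 1 or 3 of MAZ1310 or replicate 2 or 3 of HF at that time, with changes of 0.25 to 0.29 (adjusted p = 0.0705 to 0.125). The 3 h call also rests on 1 of the 5 probe sets of Sec63. The others changed by 0.088 to 0.217 there (adjusted p = 0.459 to 0.645). At 6 h another probe set was called higher (0.32, adjusted p = 0.0262). The rest were not (0.135 to 0.312, adjusted p = 0.0568 to 0.602). When replicate number and actin difference were both modelled, Sec63 was called at neither time. Its changes were then 0.39 at 3 h (adjusted p = 0.257) and 0.49 at 6 h (adjusted p = 0.078).

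Ssr2, a subunit of the translocon-associated protein complex, read 1342, 1494.5 and 1793 with MAZ1310 and 1002, 995 and 1261.5 with HF at 6 h, and fell by 0.50 ± 0.15 (adjusted p = 0.0281). The call was lost without replicate 2 or 3 of MAZ1310 or replicate 1 or 2 of HF at 6 h, with changes of -0.39 to -0.52 (adjusted p = 0.0665 to 0.137), and under cyclic loess (-0.47, adjusted p = 0.058). At 3 h the groups overlapped, at 1147, 1265 and 852 with MAZ1310 and 925, 924 and 1140.1 with HF. The other subunits Ssr1, Ssr3 and Ssr4 changed by -0.23, 0.07 and 0.23 at 3 h and by -0.19, -0.07 and -0.20 at 6 h, none of them called. Ssr1 had an adjusted p of 0.0423 at 3 h with the replicate block. Another Ssr1 probe set, at a mean intensity of 1275, was called lower at 3 h (-0.48, adjusted p = 0.0163) and at 6 h (-0.52, adjusted p = 0.00558), and a dimmer one at 3 h (-0.32, adjusted p = 0.0447). One of the other probe sets of Sec62, at 116.5, was called lower at 6 h (-0.40, adjusted p = 0.0138).

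Of the 10 degradation genes, 1 rose at 3 h (Herpud1), where 2.83% of all genes rose. At 6 h 2 rose (Herpud1 and Derl1) and 4 fell (Edem1, Edem2, Derl2 and Os9), where 5.22% of all genes rose and 11.7% fell. The median change of the 10 was -0.04 at 3 h and -0.11 at 6 h. Genes of the same step were called in opposite directions at 6 h, Derl1 and Derl2 among them.

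Herpud1 encodes a small membrane protein that assembles the HRD1 degradation complex, and its promoter is printed above with both an ERSE-II and a CARE match. At 3 h it read 852, 926 and 986 with MAZ1310 and 2320.1, 1978 and 2444 with HF. After 6 h it read 649, 639.7 and 705 with MAZ1310 and 1813, 1607 and 1904 with HF. The lowest HF array lay far above the highest MAZ1310 array at each time. Herpud1 rose by 1.28 ± 0.10 (2.43-fold, adjusted p = 1.34e-06) and 1.41 ± 0.10 (2.67-fold, adjusted p = 1.58e-07), and both of its probe sets were called. With either compound its 6 h arrays lay below its 3 h arrays.

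**Figure D3:**
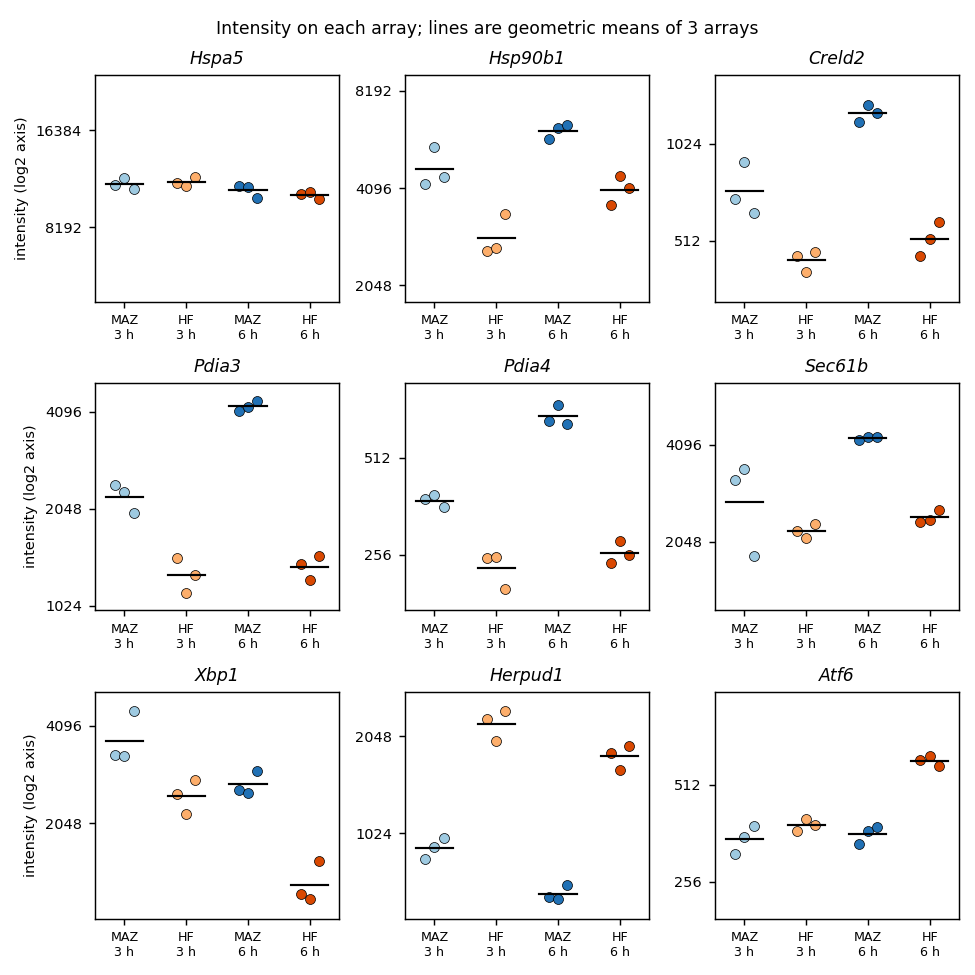
Intensity (log2 axis) of 9 genes on each of the 12 arrays, with lines at the geometric mean of the 3 arrays of a group. Hspa5 overlaps between compounds at each time, Pdia3 and Pdia4 rise with time only under MAZ1310, Sec61b has 1 low array with MAZ1310 at 3 h, and Herpud1 is higher with HF at both times.

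The mannosidase-like proteins Edem1 and Edem2 mark misfolded glycoproteins for removal. Edem1 read 750.4, 729.9 and 790.1 with MAZ1310 and 601, 529 and 607 with HF at 6 h, and fell by 0.39 ± 0.10 (adjusted p = 0.0112). Without replicate 2 of HF at 6 h the change was -0.32 (adjusted p = 0.065). The 3 h values were 1129, 1102 and 1264.5 with MAZ1310 and 1035, 894 and 1136 with HF, overlapping. All 6 h arrays of either compound lay below its 3 h arrays. Its other probe set, at a mean intensity of 801.5, changed by -0.07 at 6 h (adjusted p = 0.794), so the fall rests on 1 of 2 probe sets.

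Edem2 read 189, 202 and 206 with MAZ1310 and 151, 142 and 154 with HF at 6 h, and fell by 0.42 ± 0.09 (adjusted p = 0.00304). At 3 h it read 159.9, 184 and 198 with MAZ1310 and 164, 157 and 156 with HF. There the groups overlapped, and neither Edem1 nor Edem2 was called. A second and dimmer probe set of Edem2 changed by 0.01 at 6 h.

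Derl2, a derlin of the export channel, read 1208, 1218 and 1210.1 with MAZ1310 and 891, 883 and 979 with HF at 6 h, and fell by 0.40 ± 0.10 (adjusted p = 0.00918). The 3 h values were 987, 991 and 801 with MAZ1310 and 895, 788 and 958 with HF, overlapping. Its paralog Derl1 rose by 0.33 ± 0.10 at 6 h (adjusted p = 0.0238), and 2 of its 4 probe sets were called. That call was lost without replicate 1 or 3 of MAZ1310 or replicate 2 or 3 of HF at 6 h, with changes of 0.26 to 0.33 (adjusted p = 0.0675 to 0.127).

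Os9, a lectin that hands glycoproteins to HRD1, read 765, 892 and 809.7 with MAZ1310 and 655, 633 and 587 with HF at 6 h, and fell by 0.40 ± 0.11 (adjusted p = 0.0257). The call was lost without replicate 2 or 3 of either compound at 6 h, with changes of -0.33 to -0.40 (adjusted p = 0.0611 to 0.12), and under cyclic loess (-0.36, adjusted p = 0.0793). At 3 h it read 908, 938 and 675 with MAZ1310 and 801, 755 and 699.6 with HF, overlapping. The ubiquitin ligase itself, Syvn1 (HRD1), changed by 0.11 and 0.13, its adaptor Sel1l by -0.19 and -0.09, Edem3 by -0.01 and -0.12 and Derl3 by 0.04 and 0.07 at 3 h and 6 h. None of these was called. One other Sel1l probe set of lower intensity was called lower at both times (-0.69 and -0.49) and a second one at 3 h (-0.48).

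The 4 sensors and factors moved in different directions. Xbp1 fell at both times, Atf6 and Ern1 rose at 6 h, and Atf6b, the paralog of Atf6, changed by -0.16 and -0.06 and was not called. Of all genes 4.33% fell at both times and 5.22% rose at 6 h.

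Xbp1 read 3327, 3297 and 4562 with MAZ1310 and 2525, 2191 and 2793 with HF at 3 h. At 6 h it read 2592.5, 2545.5 and 2979 with MAZ1310 and 1234, 1187 and 1563 with HF. The HF arrays were below the MAZ1310 arrays at each time. Xbp1 fell by 0.57 ± 0.14 at 3 h (adjusted p = 0.0161) and by 1.03 ± 0.14 at 6 h (adjusted p = 7.38e-05), or 2.05-fold, and each of its 4 probe sets was called lower at 6 h. At 3 h the dimmest of them changed by -0.035 (adjusted p = 0.934), and the others were called lower. The call at 3 h was lost without replicate 3 of MAZ1310 at 3 h (-0.41, adjusted p = 0.0608), its highest array, or without replicate 2 of HF at 3 h (-0.47, adjusted p = 0.0813). The values do not tell the spliced from the unspliced Xbp1 mRNA.

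Atf6 read 336, 367 and 379.8 with MAZ1310 at 6 h and 614, 628 and 586 with HF. At 3 h the groups overlapped, at 312, 352 and 382 with MAZ1310 and 367, 402 and 384 with HF. The HF arrays at 6 h stood above all 9 others. Atf6 rose by 0.76 ± 0.09 at 6 h (1.69-fold, adjusted p = 2.15e-05), each of its 3 probe sets was called, and its change at 3 h was 0.14 (adjusted p = 0.379).

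Ern1 read 402, 377 and 347 with MAZ1310 and 519, 559 and 435 with HF at 6 h, and rose by 0.42 ± 0.10 (adjusted p = 0.00673). The 3 h values were 380.0, 362 and 335 with MAZ1310 and 399.9, 390.45 and 367 with HF, overlapping, with a change of 0.10. The call at 6 h rests on 1 of its 5 probe sets: the next brightest changed by 0.06.

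**Figure D4:**
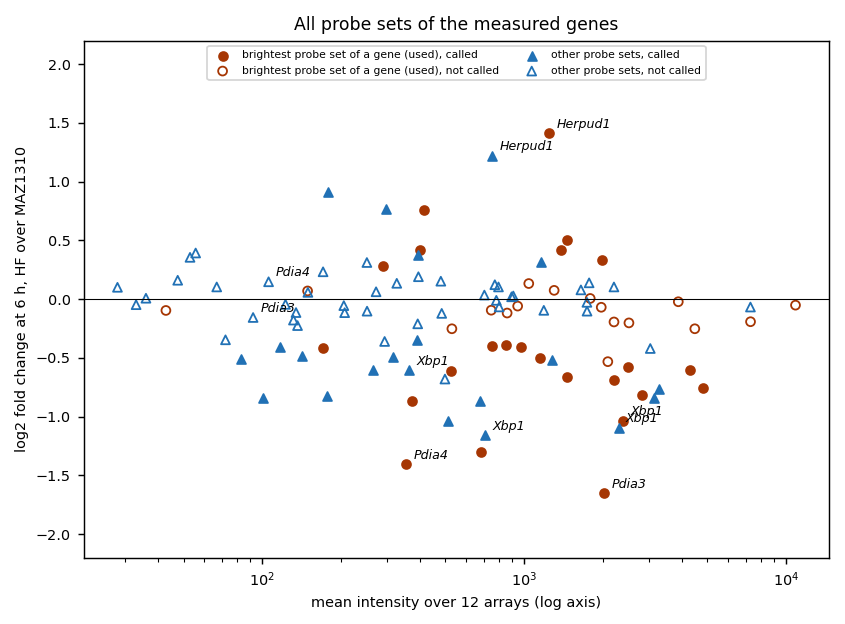
Change at 6 h (log2, HF over MAZ1310) of every single-symbol probe set of the 41 genes against its mean intensity over the 12 arrays (log axis). Circles are the probe sets used and triangles the others, filled where the adjusted p over all probe sets was under 0.05. The dim second probe sets of Pdia3 and Pdia4 lie near 0, far from the bright ones at -1.65 and -1.41. Those of Herpud1 lie at 1.41 and 1.22. The 4 of Xbp1 all lie below 0, from -1.16 to -0.605, the last being the dimmest.

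Of the 41 members 30 had several probe sets and 11 had one. Of the 17 called at 6 h that had several, 9 had another probe set called in the same direction and none had one called in the opposite direction.

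The direct test of the change in effect, that at 6 h minus that at 3 h, called 4 members, 2 in each direction, where 1.80% of all genes were called, 0.885% upward and 0.918% downward. For Pdia3 the difference was -0.85 ± 0.15 (adjusted p = 0.00978) and for Pdia4 -0.71 ± 0.14 (adjusted p = 0.0188), while for Atf6 it was 0.61 ± 0.12 (adjusted p = 0.0214) and for Dnajb9 0.62 ± 0.15 (adjusted p = 0.0459). None of the 4 was called without the 4 arrays of any one replicate number. The call of Dnajb9 was also lost without any single array but replicate 3 of MAZ1310 at 3 h (0.53 to 0.68, adjusted p = 0.0508 to 0.123), and under cyclic loess (0.58, adjusted p = 0.133). That of Pdia4 was lost without replicate 1 of HF at 3 h or at 6 h or replicate 2 of MAZ1310 at 6 h (-0.65 to -0.66, adjusted p = 0.0627 to 0.0668). That of Atf6 was lost without replicate 1 or 3 of HF at 3 h or replicate 1 or 2 of either compound at 6 h (0.56 to 0.63, adjusted p = 0.0524 to 0.0732). For Xbp1 the difference was -0.47 (adjusted p = 0.312, or 0.0363 with the replicate block). For the other members a larger effect at one time than at the other was not called.

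Between 3 h and 6 h with MAZ1310, 11 members rose and 5 fell, where 19.8% of all genes were called, 12.1% up and 7.64% down. With HF, 9 rose and 7 fell, where 15.6% of all genes were called, 8.33% up and 7.27% down. The median change over the 41 members was 0.07 with MAZ1310 and 0.09 with HF. With HF the total of 16 called was 10 without replicate 1 of HF at 3 h and 7 without its replicate 2 at 6 h. These comparisons use the same arrays as the HF effects, so they are the same values read along time.

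Of the chaperones 4 rose with time under MAZ1310 (Hsp90b1, Sdf2l1, Manf and Creld2) and of the disulfide enzymes 3 (Pdia3, Pdia4 and Pdia6). The rise of Hsp90b1 was 0.40 ± 0.12 (adjusted p = 0.0297) and was not called without replicate 1 or 3 at 3 h or replicate 2 or 3 at 6 h (0.32 to 0.38, adjusted p = 0.0857 to 0.121). Manf rose by 0.58 ± 0.15 (adjusted p = 0.0129), or 0.51 (adjusted p = 0.0659) without replicate 3 at 6 h. Pdia3 rose by 0.93 ± 0.10 (adjusted p = 1.38e-05) with MAZ1310 and changed by 0.09 (adjusted p = 0.704) with HF. Pdia4 rose by 0.87 ± 0.10 (adjusted p = 1.9e-05) and changed by 0.15 (adjusted p = 0.402). Creld2 rose by 0.81 ± 0.12 (adjusted p = 0.000234) and changed by 0.21 (adjusted p = 0.33), though the difference of these changes was not called (-0.59, adjusted p = 0.114). Sdf2l1 rose with both compounds, by 0.78 ± 0.11 (adjusted p = 0.000105) with MAZ1310 and by 0.52 ± 0.11 (adjusted p = 0.00343) with HF.

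Of the translocon genes Sec61b, Ssr2 and Ssr4 rose with time under MAZ1310, and Sec61a1 fell. Ssr4 rose by 0.83 ± 0.22 (adjusted p = 0.0118), and its replicate 3 of MAZ1310 at 3 h read 1146 beside 2279 and 2519. Without this array the rise of Ssr4 was 0.47 (adjusted p = 0.019) and that of Sec61b 0.37 (adjusted p = 0.00426) in place of 0.65. Without replicate 3 at 6 h Ssr4 was not called (0.76, adjusted p = 0.0548). Ssr2 was not called without replicate 3 at 3 h (0.35, adjusted p = 0.106) or replicate 2 or 3 at 6 h (0.53 and 0.40, adjusted p = 0.0539 and 0.121). Replicate 3 of MAZ1310 at 3 h was also the lowest of its group for Hyou1, Manf, Calr, Ssr2, Pdia3, Pdia4, Creld2 and Sdf2l1, among others. It was the highest for Xbp1, P4hb and Ero1a, among others, and neither for Hsp90b1. The rises of Pdia3, Pdia4, Creld2 and Sdf2l1 with time under MAZ1310 were still called without it. With HF the falls over time included Edem1 by 0.82 ± 0.10 (adjusted p = 3.3e-05), which also fell by 0.62 ± 0.10 (adjusted p = 0.000282) with MAZ1310. The other Edem1 probe set changed by -0.18 (adjusted p = 0.408) and -0.32 (adjusted p = 0.0663), neither of them called. With HF a fall was also called for Xbp1 by 0.92 ± 0.14 (adjusted p = 0.000234), beside 0.45 ± 0.14 (adjusted p = 0.0304) with MAZ1310. The last call was lost without replicate 3 of MAZ1310 at 3 h (-0.29, adjusted p = 0.137) or replicate 1 or 2 at 6 h (-0.42 and -0.41, adjusted p = 0.0981 and 0.11).

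**Figure D5:**
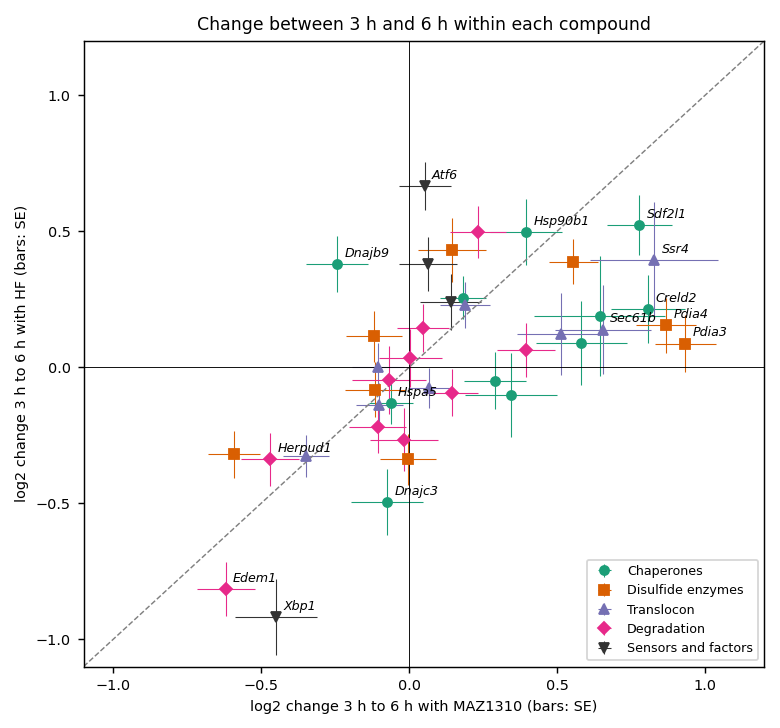
Change from 3 h to 6 h with MAZ1310 (x) and with HF (y), log2 ± SE, for each of the 41 genes, marked by role, with the diagonal of equal change dashed. Pdia3 and Pdia4 lie near 0 on the HF axis and at 0.93 and 0.87 on the MAZ1310 axis, and Atf6 lies at 0.66 with HF and 0.05 with MAZ1310.

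A wider set of 74 genes of the same pathways, 73 of them measured, had 7 called higher with HF and 8 called lower at 3 h. These were 9.59% and 11% of the set, beside 2.83% and 6.66% of all genes. At 6 h 10 were higher and 25 lower (13.7% and 34.2%), beside 5.22% and 11.7% of all genes. Of the 7 genes of the PERK arm, 6 were higher with HF at each time (2.83% of all genes at 3 h and 5.22% at 6 h). At 3 h Eif2ak3, which encodes PERK, was lower (-0.54 ± 0.16, adjusted p = 0.0499). The largest rises of this arm at 6 h were in Trib3, an inhibitor of ATF4 (2.87 ± 0.23 at 3 h and 4.28 ± 0.23 at 6 h), Chac1, a glutathione-degrading enzyme (2.65 ± 0.14 and 3.09 ± 0.14), and Ddit3, the factor CHOP (2.49 ± 0.12 and 2.30 ± 0.12).

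Of 14 genes of signal recognition and signal cleavage, 1 rose and 1 fell at 3 h (2.83% and 6.66% of all genes). At 6 h 1 rose and 5 fell (5.22% and 11.7% of all genes). The largest changes at 6 h were in Sec11c (-0.91 ± 0.16, adjusted p = 0.00076), a signal peptidase subunit, Tram1 (-0.88 ± 0.12, adjusted p = 0.000114), a protein beside the channel, and Spcs1 (-0.64 ± 0.17, adjusted p = 0.0132). Of 12 N-glycosylation genes, 2 fell at 3 h (6.66% of all genes) and 4 at 6 h (11.7% of all genes) and none rose. They were led by the oligosaccharyltransferase subunits Rpn1 (-0.79 ± 0.10, adjusted p = 4.57e-05), Magt1 (-0.55 ± 0.10, adjusted p = 0.00108) and Ddost (-0.49 ± 0.10, adjusted p = 0.00287).

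Of 11 further folding enzymes, 1 fell at 3 h (Txndc5, beside 6.66% of all genes) and 5 fell at 6 h (11.7% of all genes), and none rose. Fkbp2, a prolyl isomerase of the ER, fell by 1.68 ± 0.17 at 6 h (adjusted p = 6.38e-06). Erp29 and Tmx1, of the thioredoxin family, fell by 0.63 ± 0.13 (adjusted p = 0.00309) and 0.58 ± 0.08 (adjusted p = 9.98e-05). Between 3 h and 6 h, 7 of these 11 and 7 of the 12 N-glycosylation genes rose under MAZ1310 (12.1% of all genes), and 2 of each rose with HF (8.33% of all genes). The test of the difference called Fkbp2 alone among the 11, and none of the 12 by limma (3 at an unadjusted p under 0.05).

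Of 13 genes of ubiquitination and extraction measured, 2 fell at 3 h (6.66% of all genes). At 6 h 6 fell and 2 rose (11.7% and 5.22% of all genes). Vcp, the ATPase that pulls substrates out, fell by 0.53 ± 0.12 (adjusted p = 0.0043) and the ligase Rnf5 by 0.53 ± 0.09 (adjusted p = 0.000436), while the ligase Rnf139 rose by 0.68 ± 0.11 (adjusted p = 0.000337). Of 12 genes of COPII vesicles, which carry folded protein out, 1 fell at 3 h. At 6 h 3 fell (Sar1b, Sec23b and Sec24d) and 1 rose (11.7% and 5.22% of all genes). The fall at 3 h was 8.33% of this list, near the share of all genes. Of 4 genes of the site proteases and CREB3 factors, none was called at 3 h by limma (1 at an unadjusted p under 0.05), and Creb3 and Creb3l2 fell at 6 h by 0.31 ± 0.08 (adjusted p = 0.00981) and 0.36 ± 0.12 (adjusted p = 0.0472).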

How the data were processed

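Biotin-labelled RNA of each sample was read on 1 Affymetrix array, per the labels' protocols. The deposited values are probe set intensity on a linear scale, made by the authors with RMA (background correction, quantile normalization, probe summary), per the submitters' processing notes. For its version, for detection calls and for batches, nothing is given in the sources used here. Of 45101 probe sets, 64 were controls, 34945 carried a single gene symbol in the platform annotation, 932 several, and 9160 were not listed. Here log2 was taken, and each gene was represented by its brightest single-symbol probe set over the 12 arrays, which gave 18193 genes.

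A model of 4 group means was fitted with limma 3.58.1 in R 4.3.3 (lmFit, eBayes), and its contrasts were the HF effect (HF over MAZ1310) at each time, the change of that effect between times, and the change over time under each compound. Intervals are 95% intervals of the moderated test, and the small number of arrays limits their precision. The fitting code was tested on simulated data. The members and lists were chosen with earlier results of these data known. All 12 values were given for Hspa5, Hsp90b1, Herpud1, Xbp1, Atf6, Ern1 and Sec61a1 and, in each role, for up to 5 called members with the largest HF effect at 6 h. In the wider lists up to 3 called genes with the largest effect at 6 h were named, and others were named to complete a count. T cell and other cell markers were followed as 6 lists.

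Replicate numbers come from the labels. The deviation from its group mean of an HF array and of the MAZ1310 array with the same number had a correlation of 0.242 to 0.381 at 3 h and of 0.287 to 0.391 at 6 h, so the numbers were taken to pair the 2 compounds. Across times the correlation was 0.322 to 0.502 under HF and 0.0289 to 0.252 under MAZ1310. Alternatives were the replicate block, the block with the actin 3' to 5' difference, only the groups compared, cyclic loess, a filter on dim genes, other choices of probe set, and leaving out each array or each replicate number. Promoters were read from RefSeq sequences, and motif matches required every fixed letter.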

Additional observations from a re-analysis of the deposited data

Results flagged for a closer look

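For 6 genes the HF effect at 6 h differed from that at 3 h by the test of the difference itself (limma, adjusted p under 0.05 over all genes, 3 arrays a group). This test called 1.80% of all genes. None of the 4 members among the 6 kept its call in every setting, and Fkbp2 and Trib3 were not checked in other settings. Pdia3 and Pdia4 fell further at 6 h, with differences of -0.847 (effects of -0.81 and -1.65, adjusted p = 0.00978) and -0.713 (-0.69 and -1.41, adjusted p = 0.0188). Fkbp2, a folding enzyme of the wider list, had a difference of -1.219 (-0.46 and -1.68, adjusted p = 0.0195).

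In the other direction, Atf6 had a difference of 0.613 (0.14 and 0.76, adjusted p = 0.0214) and Dnajb9 one of 0.624 (-0.12 and 0.50, adjusted p = 0.0459). Trib3 of the PERK arm had a difference of 1.412 (2.87 and 4.28, adjusted p = 0.0409).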

How the results depend on the processing

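Under the replicate block alone, the counts of members called were 14 at 3 h, 27 at 6 h, 5 for the difference of effects, 19 for time with MAZ1310 and 17 for time with HF, beside 11, 24, 4, 16 and 16 without it. Apart from the calls given with the report's results it changed no call of a member's HF effects or of their difference. The share of all genes called is given above for the block with the actin difference, but not for the block alone. Under the replicate block with the actin 3' to 5' difference, the counts were 1 at 3 h (1 higher, 0 lower by limma), 9 at 6 h (3 higher, 6 lower), 7 for the difference of effects and 8 for time with HF. Among probe set choices, suffixed probe sets left out gave 6 at 3 h (1 higher, 5 lower), and the mean of probe sets gave 1 higher at 3 h and 4 at 6 h. The second brightest probe set gave 1 higher at 3 h, 4 higher at 6 h, 1 for the difference of effects, 8 for time with MAZ1310 and 9 with HF. It reversed Pdia3 at 3 h (0.07), Pdia4 at 3 h (0.152), at 6 h (0.148) and over time with MAZ1310 (-0.104), Edem2 at 6 h (0.008) and Ern1 over time with HF (-0.093). Only the 2 groups compared gave 1 higher at 3 h, and this was not run for the difference of effects.

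Leaving out 1 array, or the 4 arrays of 1 replicate number, gave 4 to 14 members at 3 h (1 to 2 higher, 3 to 13 lower), 14 to 23 at 6 h (3 to 6 higher, 11 to 18 lower), 0 to 4 for the difference of effects, 8 to 19 for time with MAZ1310 and 4 to 15 for time with HF. The low counts at 3 h and 6 h came from leaving out all arrays numbered 2, and at 6 h also from those numbered 1. The cause was not tested for any of these changes. Calls that held in every setting run were 1 of 11 at 3 h (Herpud1), 6 of 24 at 6 h (Sdf2l1, Creld2, Calr, Herpud1, Xbp1 and Atf6), 0 of 4 for the difference of effects, 2 of 16 for time with MAZ1310 and 3 of 16 for time with HF. Sdf2l1 and Creld2 have 1 probe set, so the probe set choices could not change their values. All probe sets of Calr are suffixed, so Calr was not in the fit without suffixed probe sets. At 6 h Pdia3 and Pdia4 lost their calls only with the second brightest probe set. Which calls held in every setting thus depends in part on the probe sets a gene has. Of 284 alternative values of 17 uncalled results, 15 were called. With 3 arrays a group and no detection calls, a change of a dim probe set such as that of Pdia5 may not be detectable.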
